A study of Drosophila melanogaster with 65 samples.

Results

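The 92 genes described here lie on chromosome 4 of Drosophila melanogaster and were taken from gene tables that listed 16369 genes. The tables held 104 genes of this chromosome. The gene ci, the target of one of the knockdowns, was left out, and a gene was kept when at least 10 unique sense reads fell in its locus in at least 3 of the 24 long RNA libraries. That left 11 genes under the threshold. The genes were thus selected on their unique sense read counts, and being detected is not a result. Just inside the threshold were CR45125, with 10 reads in 3 libraries, and CR44440 and CR46065, with 10 reads in 4 and 5 libraries. Just outside were CR43425, CR45198 and CR45124, each with 10 reads in 1 library. RefSeq had an entry for 90 of the 92, of which 78 were protein coding, 6 antisense RNAs and 6 long noncoding RNAs.

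The fourth chromosome is a very small autosome whose gene-bearing arm is coated with heterochromatin protein 1 (HP1a), and with H3K9me3, a histone mark of silent chromatin, while many of its genes are transcribed. The methyltransferase Eggless, encoded by egg, places much of that mark there. The protein encoded by Pof binds the transcribed genes of this chromosome and is known to raise their output, and H3K4me3 marks the starts of active genes.

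Long RNA was sequenced from OSS cells, a line of ovarian somatic cells without germline, and from whole ovaries of flies. The 12 OSS libraries came from cells given siRNA against GFP (siGFP, the control), Piwi (siPiwi), Traffic jam (siTj) or Ci (siCi), 3 libraries each, and the 12 ovary libraries from 6 fly lines (FlamBG, FlamKG, FITS, FPSE1, FPSE2A and FPSE2B), with a mutant and a wild-type library of each. The series text describes the mutants as deletions in the promoter region of flamenco, a piRNA cluster on another chromosome. What each line carries, the age of the flies and the background of the wild types are not given in the sources used here. OSS cells were also profiled by Cut&Run, which maps histone marks, in 4 libraries for H3K9me3 and 4 for H3K4me3 (untreated cells, called Plain 1 and Plain 2, siGFP and siTj). Nothing in the labels says whether replicate libraries came from different cultures or flies, so a p-value here measures the spread between libraries only, and that spread could be technical.

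Unique sense reads ranged from 9075806 to 54359738 per OSS library and from 9676965 to 81892058 per ovary library. Levels are CPM (counts scaled to library size within each comparison), so siGFP values differ slightly between comparisons. The knockdown targets were lower in each labelled group, with piwi at 113, 34.2 and 118 CPM in siPiwi against 720, 661 and 901 in siGFP, tj at 569, 218 and 593 in siTj against 2030, 1100 and 1210, and ci at 41.8, 61.5 and 72.3 in siCi against 116, 122 and 182. The libraries siPiwi 2 and siTj 2 stood apart: antisense reads made up 10.33% and 5.895% of reads in the chromosome 4 genes there, against 0.4125% to 2.122% in the other OSS libraries. The 6 ovarian somatic markers summed to 4340 to 5810 CPM in siGFP cells and 422 to 1040 in wild-type ovaries, and the 6 germline markers to 27.3 to 64.1 and 1460 to 5080, with nos and osk between 0 and 0.207 CPM in siGFP cells.

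Most of the chromosome 4 genes had lower relative levels in siGFP OSS cells than in wild-type ovaries. The median gene stood at 5.07 CPM in the 3 siGFP libraries and at 55.6 CPM in the 6 wild-type ovary libraries. Of the 91 that were tested, 61 were lower and 1, ND-49, was higher at an adjusted p under 0.05 (edgeR's quasi-likelihood test, Benjamini-Hochberg adjusted over the 11753 genes tested, as throughout), where 43.4% of all genes tested were called, 23.9% of them lower and 19.5% higher. The median log2 fold change was -2.21 over the chromosome 4 genes and -0.28 over all genes, and 84 of the 91 were below 0. On the other arms the median lay between -0.33 and -0.22, with 22.3% to 25.0% of genes called lower. In 55 genes every siGFP library lay below every ovary library, and in 0 genes above, while over the 13658 genes past the same read threshold the shares were 19.6% and 16.6%. DESeq2 called 70 of the 91, and 51.3% of all genes. In bulk RNA, fewer cells of a type and less RNA per cell cannot be told apart.

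The threshold could be met in ovaries alone, and 13 of the 92 genes had 10 reads in fewer than 3 OSS libraries, which favours a lower level there. Some other genes had most of their OSS reads in siPiwi 2 and siTj 2. NfI had 118 and 112 unique sense reads there and 26 over the other OSS libraries together, and sv 209 and 233 against 46. Counts below over genes with 10 reads in at least 3 OSS libraries share this limit. The comparison was therefore also read over genes with at least 10 reads in all 24 libraries. Of these 47 chromosome 4 genes, 28 were lower (59.6%) and 1 was higher, with a median log2 fold change of -1.35. Of the 6979 genes of the other arms that met the same condition, 21.2% were lower and the median was -0.06. Which cell types of the ovary account for these levels was not tested.

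**Figure D1:**
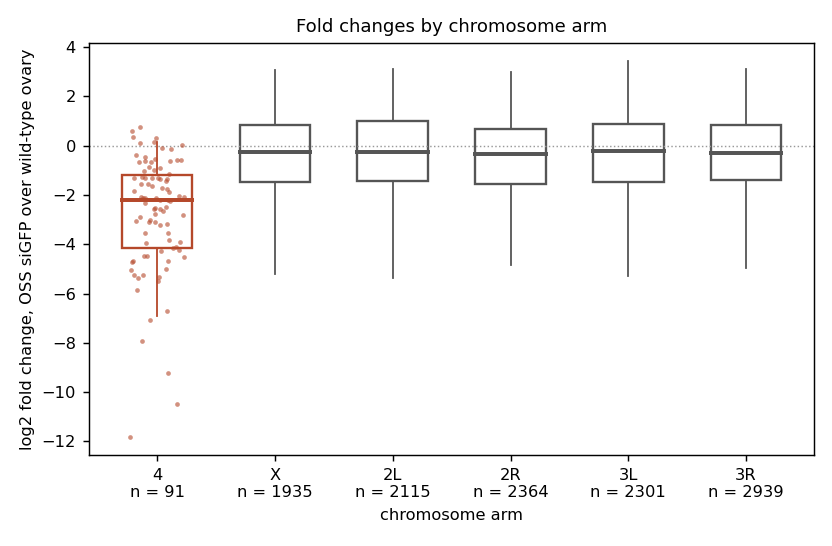
Log2 fold change of siGFP OSS cells over wild-type ovaries for the genes of each chromosome arm. Boxes give quartiles, whiskers the 5th to 95th percentile and points the 91 chromosome 4 genes; the chromosome 4 median is -2.21 and those of the other arms are -0.33 to -0.22.

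Of the transcription factors and cofactors of the chromosome, 17 were tested, of which 11 were lower in OSS cells and 0 were higher, with a median log2 fold change of -2.79. Beside this and the role lists below, 67.0% of the chromosome 4 genes and 23.9% of all genes tested were lower. The counts by role are descriptions, and no role was tested against the rest. MED26, a subunit of the Mediator complex, was expressed at 45, 47.6 and 129 CPM in the 3 siGFP libraries, and the lowest, median and highest of the 6 wild-type ovaries were 334, 412 and 817 CPM. Values of the other genes follow the same order. The groups did not overlap, and the log2 fold change was -2.79 (SE 0.49, edgeR adjusted p = 0.00086). The bounds of MED26 differ between libraries, so its value is uncertain. The Polycomb-group DNA-binding protein gene pho stood at 51.7, 54.1 and 212 CPM against 231, 337 and 2180 CPM, with 1 siGFP library close to the lowest ovary, a log2 fold change of -2.83 (SE 0.89) and an edgeR adjusted p of 0.0238, which rose to 0.0921 without siGFP 1 and 0.0887 without siGFP 2.

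Other genes of the list were low in OSS cells. NfI, a nuclear factor I gene on chr4:268169-276374, was at 0, 0.395 and 0.0266 CPM against 2.83, 8.77 and 11.1 CPM, a log2 fold change of -5.50 (SE 0.97, edgeR adjusted p = 0.00087). Sox102F, a SoxD-type factor, stood at 0, 2.27 and 0.665 CPM against 12.4, 13.4 and 41.4 CPM, with every siGFP library below every ovary. Its log2 fold change was -4.27 (SE 0.92, edgeR adjusted p = 0.00305). The zinc finger homeodomain gene zfh2 and the Pax gene sv were called lower too, at -2.26 and -3.83, though zfh2 lost its call without siGFP 1 or siGFP 3 (edgeR adjusted p = 0.0664 and 0.065), whereas the Pax6 gene ey missed the threshold at -2.13 (edgeR adjusted p = 0.0906).

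The Wnt pathway genes pan and lgs were not called. The TCF gene pan, on chr4:69647-114275, was at 87, 85 and 77.4 CPM against 81.5, 136 and 167 CPM in ovaries, and these ranges overlapped (log2 fold change -0.65, SE 0.28, edgeR adjusted p = 0.0755). Reads of pan that mapped to more than 1 position, which these counts leave out, made up 39.3% of its sense reads. For lgs, its BCL9-type coactivator, the log2 fold change was 0.10 (edgeR adjusted p = 0.80), and for the chromatin cofactor gene Hcf it was -0.08 (0.869).

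Of 12 signalling genes, 6 were lower in OSS cells (median log2 fold change -1.43), beside 67.0% of the chromosome 4 genes. The called genes were the TGF-beta ligands mav (-1.83) and myo (-3.05), the semaphorin receptors PlexA (-0.88) and PlexB (-1.13), the kinase gene Dyrk3 (-2.51) and Slip1 (-1.57). PlexA stood at 211, 268 and 351 CPM against 367, 500 and 646 CPM, so that the groups lay side by side without overlap (edgeR adjusted p = 0.0326). The call of PlexA was lost in 6 of its alternatives (without siGFP 1, 0.123), and that of mav without siGFP 1 or siGFP 2 (0.05 and 0.051). Crk, an SH2 and SH3 adaptor, stood at 109, 64.8 and 186 CPM against 132, 172 and 1050 CPM and missed the threshold at -1.64 (edgeR adjusted p = 0.0958). The receptor gene Eph and its ligand gene Ephrin did as well, at -0.60 and -0.53.

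Levels were compared between genes per kb of locus. In siGFP cells RpS3A, a protein of the small ribosomal subunit on chr4:65219-67212, led with 399 ± 98.3 CPM per kb (SD, n = 3), followed by ATPsynbeta, the catalytic beta subunit of mitochondrial ATP synthase, with 152 ± 80.5, ND-49, a subunit of respiratory complex I, with 64.4 ± 16, and gw, the GW182 protein of miRNA silencing, with 58.3 ± 11.8. From ND-49 down, neighbours in this order lay within each other's SD. In wild-type ovaries RpS3A and ATPsynbeta again led, with 1020 ± 280 and 564 ± 86.4 CPM per kb (SD, n = 6), followed by Arf102F with 429 ± 457, CG11076 with 149 ± 12.6, Arl4 with 128 ± 139 and Crk with 127 ± 126, of which Arf102F, Arl4 and Crk varied as widely as their own means. Gene lengths were those of the siGFP 1 library throughout. For CG11076 this was 1276 bp, but 5 of the wild-type ovary libraries counted it over 2058 bp. Its ovary value is therefore too high, and its place above Arl4 and Crk is uncertain. Of the 8 highest genes in each source by these lengths, 4 were shared, CG11076 among them.

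RpS3A was at 988, 802 and 596 CPM against 1430, 1900 and 2810 CPM in ovaries. Every siGFP library was below every ovary, with a log2 fold change of -1.36 (SE 0.34, edgeR adjusted p = 0.00765). ATPsynbeta stood at 270, 393 and 748 CPM against 1320, 1700 and 2040 CPM, also without overlap (log2 fold change -1.89, SE 0.37, edgeR adjusted p = 0.00185). Its bounds differ between the OSS and the ovary tables, with chr4:1031478-1034562 in most OSS libraries and chr4:1031858-1034922 in all ovary libraries, so its value is uncertain.

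Set beside genes of the same complexes on other arms, chosen after the values were seen and with no test, RpS3A lay inside its family. The median log2 fold change of 79 ribosomal protein genes was -1.91, and 60 of them lay below RpS3A. ATPsynbeta was lower than each of 12 other ATP synthase genes, whose median was -0.83. ND-49 was the single chromosome 4 gene called higher in OSS cells, at 199, 165 and 268 CPM against 82, 123 and 166 CPM, ranges that overlapped by 1 siGFP library. Its log2 fold change was 0.75 (SE 0.27, edgeR adjusted p = 0.0403), 4 of 34 other complex I genes named ND- lay above it, and without siGFP 1 or siGFP 3 the adjusted p rose to 0.111 or 0.178.

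Of the 5 translation and RNA genes, 3 were lower (median -1.0). Besides RpS3A these were the eIF4E-binding protein gene 4E-T, at 79.7, 71.9 and 103 CPM against 144, 213 and 313 CPM (log2 fold change -1.35, edgeR adjusted p = 0.00347), and CG11148, at 201, 249 and 246 CPM against 346, 481 and 567 CPM (-1.0, 0.0107; 0.0576 without siGFP 1). Neither gene's groups overlapped. The scaffold of translation initiation, eIF4G, stood at 563, 805 and 633 CPM against 675, 908 and 1390 CPM and overlapped (-0.61, edgeR adjusted p = 0.142). The GW182 gene gw was at 936, 897 and 631 CPM against 508, 632 and 879 CPM, with a log2 fold change of 0.34 (SE 0.27, edgeR adjusted p = 0.332).

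**Figure D2:**
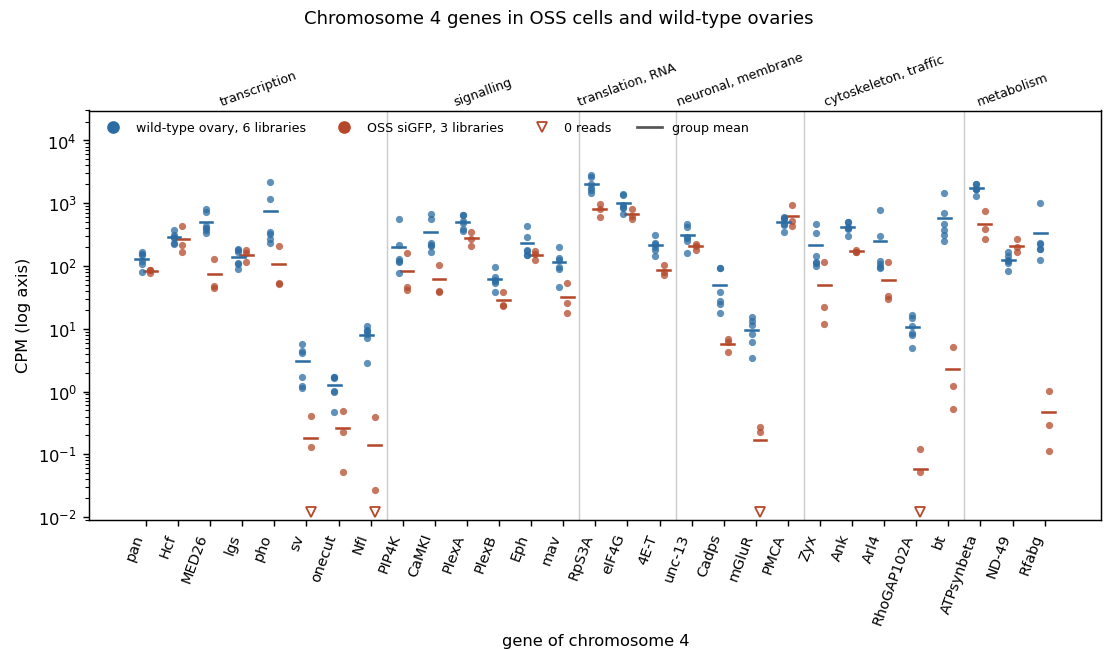
Level in CPM (log axis) of 29 chromosome 4 genes, ordered by role, in each of 3 siGFP OSS libraries and 6 wild-type ovary libraries. ND-49 and CaMKI, which the role lists of the text leave out, are drawn under metabolism and signalling. Each point is a library, bars are group means and open triangles mark libraries with 0 reads. In OSS cells RpS3A stands at 596 to 988 CPM, Rfabg at 0.112 to 1.01 and RhoGAP102A at 0 to 0.12.

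Of 7 cytoskeleton and traffic genes, 5 were lower in OSS cells (median -2.11; 4 of 6 and -2.08 without RhoGAP102A, which also had 10 reads in fewer than 3 OSS libraries), and of 7 metabolic and housekeeping genes 5 (median -1.89). The gene bt encodes projectin, a giant protein of the muscle sarcomere, and lies on chr4:724394-776479. Its levels were 1.24, 5.16 and 0.532 CPM against 248, 416 and 1430 CPM in ovaries, a log2 fold change of -7.94 (SE 1.04, edgeR adjusted p = 0.000124). Rfabg, which RefSeq lists as apolpp, encodes the precursor of the lipoprotein lipophorin made by the fat body. It stood at 0.112, 1.01 and 0.292 CPM against 123, 207 and 1020 CPM (-9.23, SE 1.11, edgeR adjusted p = 7e-05). Its bounds differ between libraries too.

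Markers of other cell types moved in the same comparison. The 5 muscle markers (Mhc, Act57B, Mlc2, up and wupA) summed to 70.5 to 98.1 CPM in siGFP cells and to 306 to 2810 CPM in ovaries, and 5 of 5 were lower in OSS cells. Of the 4 hemocyte and fat body markers, 3 were lower (Hml, Cg25C and vkg), and Fbp1 was at 0 to 0.151 CPM in siGFP cells. Of 6 germline markers, 5 were lower and rhi was not called. Their part in the levels of bt, Rfabg or other chromosome 4 genes was not tested.

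The ankyrin gene Ank varied little among the siGFP libraries but was lower there than in ovaries, at 167, 166 and 182 CPM against 296, 412 and 511 CPM (-1.29, SE 0.26, edgeR adjusted p = 0.00208). Every siGFP library lay below every ovary library.

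Of 12 neuronal and membrane genes, 7 were lower in OSS cells (median -1.92), or 6 of 11 (median -1.27) without dpr7, which had 10 reads in fewer than 3 OSS libraries. The metabotropic glutamate receptor gene mGluR stood at 0.225, 0.275 and 0 CPM against 3.43, 9.87 and 15.2 CPM (log2 fold change -5.87, SE 1.00, edgeR adjusted p = 0.000724). Cadps, which primes dense core vesicles, was at 6.97, 4.23 and 6.14 CPM against 17.7, 33.2 and 93.2 CPM (-3.09, edgeR adjusted p = 0.00219). Its neighbour in function unc-13, which primes synaptic vesicles, was high in both sources, at 228, 180 and 212 CPM against 164, 284 and 459 CPM, and was not called (-0.59, edgeR adjusted p = 0.17). The calcium pump gene PMCA, at 939, 514 and 440 CPM against 352, 514 and 604 CPM, was not called either (0.32, edgeR adjusted p = 0.424). Of the 4 neuronal markers, brp was higher in OSS cells and elav, nSyb and Syt1 were not called.

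Among 31 tested genes outside the role lists, which held the complex I gene ND-49 and CaMKI, 24 were lower and ND-49 was higher (median -3.19). Of the 20 of them with 10 reads in at least 3 OSS libraries 16 were lower (median -2.52). In 3 tested genes no siGFP library had a read, and CR45126 and CR44440 are among the 13 that met the read threshold without 3 OSS libraries, so their low level there follows from the selection. Against a floor of 3 reads over the 3 siGFP libraries together (0.0287 CPM), CG31997, at 4.67, 8.02 and 24.1 CPM in ovaries, was at least 350-fold higher there. The bound was 143-fold for CR45126, at 0.807, 2.46 and 10.8 CPM, and 10.6-fold for CR44440. With these genes at their bound, the median over the 91 genes was still -2.21.

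Of 16 regulators of chromosome 4 chromatin, 5 were higher in siGFP cells than in ovaries and 4 were lower, counts near the 19.5% and 23.9% of all genes. The higher genes were egg (log2 fold change 0.64), the gene of HP1a (1.75), HP1c (1.05), HP4 (1.20) and XNP (2.21), and the lower ones Pof (-1.82), Su(var)3-9 (-1.26), Su(var)2-10 (-1.60) and Kdm4A (-1.79). The level of Pof was 4.4 to 9.52 CPM in siGFP cells and 21.9 to 31.4 CPM in ovaries, without overlap (SE 0.32, edgeR adjusted p = 0.00094). Whether these levels bear on the chromosome 4 genes was not tested.

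Both histone marks were found on the chromosome 4 genes in OSS cells. A H3K9me3 summit, the highest point of an enriched region in the authors' lists, fell within 71 of the 92 genes in at least 1 library, and 31 genes held one in all 4 libraries. Such genes numbered 68, 60, 55 and 31 in Plain 1, Plain 2, siGFP and siTj, or 73.9%, 65.2%, 59.8% and 33.7% of the 92. Between 3.04% and 16.6% of genes past the same read threshold on the other arms held one, library by library. These shares also depend on gene length. Per Mb of gene length the chromosome 4 genes held 330, 199, 196 and 69.1 summits in the same order. On the other arms the densities were 76.4 to 110, 45.7 to 75.3, 73.9 to 118 and 25.8 to 58.7, so that siTj was closest to them. A H3K4me3 summit fell within 47 genes, and 40 genes held both marks, 31 only H3K9me3, 7 only H3K4me3 and 14 neither.

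H3K4me3 at gene starts was listed at shares close to those of other arms. Within 500 bp of the start it was listed for 37, 27, 34 and 12 genes in Plain 1, Plain 2, siGFP and siTj (40.2%, 29.3%, 37.0% and 13%). The shares on each other arm ranged from 37.6% to 41.9%, 34.2% to 37.1%, 35.5% to 39.0% and 15.4% to 20.2%, so that Plain 2 and siTj lay below the range of the other arms. The 10 genes with a start summit in each of the 4 libraries were RpS3A, eIF4G, pho, bip2, Eph, Arf102F, Cals, CG2316, CG11360 and pncr013:4. At 9.96, 76.7, 101 and 335 in siTj, Plain 2, siGFP and Plain 1, the -log10 q of the start summit of RpS3A differed widely between the lists.

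H3K9me3 summits were rare just inside genes with H3K4me3 at the start. In the 28 genes with H3K4me3 at the start in 3 or 4 libraries, H3K9me3 summits per kb and library were 0 over the first 0.5 kb into the gene, 0 from 0.5 to 1 kb, 0.0787 from 1 to 2 kb, 0.313 from 2 to 4 kb and 0.408 from 4 to 8 kb. Upstream, 1 of the 28, Crk, had a H3K9me3 summit within 500 bp of its start in Plain 1. In the 10 genes with H3K4me3 at the start in 1 or 2 libraries the density was 0, 0.106, 0.0278, 0.221 and 0.333 over these distances. Of the 28 genes, 21 held H3K9me3 farther in. In the 54 genes with no H3K4me3 at the start the density was 0.13, 0.127, 0.105, 0.231 and 0.173 over the same distances. These densities are descriptions over genes that share 4 libraries, with no test.

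**Figure D3:**
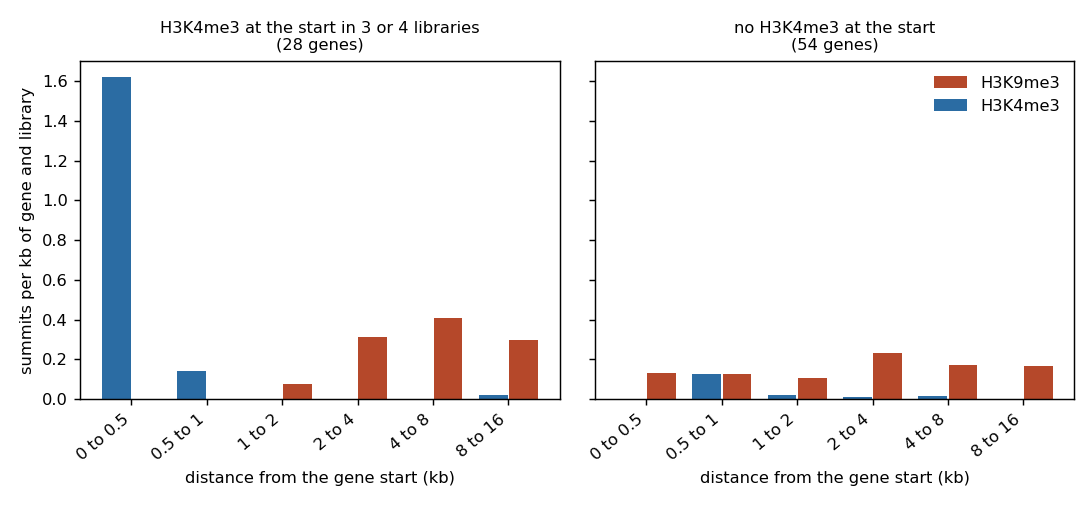
Summits per kb and library against distance from the gene start in kb, for chromosome 4 genes with H3K4me3 at the start in 3 or 4 libraries (28 genes) and without it (54 genes). Where H3K4me3 marks the start, H3K9me3 stands at 0 over the first 1 kb into the gene and at 0.313 per kb and library from 2 to 4 kb.

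Long genes carried the most H3K9me3 summits, whether their level in OSS cells was high or low. The synaptic gene unc-13, 41.4 kb long on chr4:870924-912336, held 27, 11, 13 and 3 summits in Plain 1, Plain 2, siGFP and siTj, while it stood at 180 to 228 CPM. The projectin gene bt, 52.1 kb long, held 9, 3, 16 and 11, and the kinesin gene Kif3C held 13, 12, 10 and 3. By the authors' -log10 q the highest summits of Plain 1 were in pan (147), onecut (77.7) and unc-13 (59.2). The 21 genes without a H3K9me3 summit included zfh2 (39.1 kb), sv (24.5 kb) and NfI (8.21 kb), which were near 0 in OSS cells, but also RpS3A (1.99 kb), the highest gene of the chromosome, Crk and Arf102F.

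H3K9me3 and level did not run in opposite directions over the genes. The 31 genes with H3K9me3 in all 4 libraries had a median of 37.2 CPM in siGFP cells and a median length of 16.5 kb. The 40 genes with it in 1 to 3 libraries had a median of 5.19 CPM, and the 21 genes without it a median of 0.141 CPM and 2.79 kb. Levels went with H3K4me3 at the start, with medians of 77.4 CPM in the 28 genes marked in 3 or 4 libraries, 48.4 CPM in the 10 marked in 1 or 2 and 0.508 CPM in the 54 unmarked. The median log2 fold change against ovaries was -1.33, -2.05 and -3.09 in these 3 groups, with 16, 6 and 39 genes called lower. Gene length moved with both measures, and its part was not tested.

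Fewer summits were listed in siTj than in siGFP cells. Within the chromosome 4 genes H3K9me3 summits numbered 204 in siGFP and 72 in siTj, 24 genes held one in siGFP alone and 0 in siTj alone, and 49 genes had fewer while 2, CG11231 and toy, had more. Genes with a summit numbered 55 in siGFP and 31 in siTj on chromosome 4. On X they numbered 354 and 145, on 2L 237 and 114, and on 2R 311 and 140. On 3L they numbered 333 and 184, and on 3R 277 and 105, so the fall was not particular to chromosome 4. The whole lists shortened alongside, from 16939 to 8829 summits for H3K9me3 and from 6255 to 3134 for H3K4me3, and with 1 library each there is no replicate check. Each other arm holds far more genes, with 2133 to 3449 past the read threshold against the 92 here. The TJ peak list held 3 peaks on chromosome 4 of 1987, against 369 to 448 on each other arm. They lay on chr4:554744-555243 in Thd1, on chr4:557414-557913 in Thd1 and CR43958, with its centre 196 bp from the start of CR43958, and on chr4:1266906-1267405 in Cadps, 35278 bp from its start.

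None of the 3 knockdowns gave a chromosome 4 gene past the threshold. All 3 are set against the same 3 siGFP libraries. The fit without a block did not call the silenced genes either. Their log2 fold changes were -3.11 for piwi in siPiwi (edgeR adjusted p = 0.822), -1.65 for tj in siTj (0.533) and -1.26 for ci in siCi. A count of 0 there thus does not show that the chromosome 4 genes were unchanged. Of 74 genes tested, 0 were called in siPiwi, siTj and siCi, where 0.0%, 0.0466% and 0.0% of all 10724 genes were called, and 0, 3 and 0 had an unadjusted p under 0.05 (0.587%, 7.35% and 0.774% of all genes). DESeq2 called 0 of the 74 in each knockdown, against 0.0186%, 1.96% and 0.0% of all genes, with 3, 5 and 1 at an unadjusted p under 0.05. For some of the 74 it gave no p-value, in siPiwi for Rfabg, Syt7, ey, fd102C, mGluR, onecut, sv, toy and zfh2, so these could not be called. Median log2 fold changes of the 74 genes were -0.22, 0.05 and -0.28 and those of all genes 0.03, 0.08 and -0.01. With the replicate number as a block 0 were called as well, against 0.0%, 3.52% and 0.0% of all genes. By unadjusted p under 0.05 the block fit gave 3, 18 and 5 of the 74, beside 2.27%, 19.9% and 3.84% of all genes.

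In siTj, 12 of the 92 genes had every library above every siGFP library, as did 7.27% of the 13658 genes past the same read threshold, and 1, ND-49, had every library below (5.14% of those genes). Sox102F stood at 24.2, 15.1 and 8.63 CPM in siTj 1, 2 and 3 and at 0, 2.28 and 0.628 CPM in siGFP 1, 2 and 3. The log2 fold change was 3.97 (SE 1.77, edgeR adjusted p = 0.661). In siTj 1 and 3 its antisense reads were 9 and 7 beside 424 and 124 sense reads, while siTj 2 had 472 beside 515.

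CG31999 stood at 7.98, 4.28 and 4.87 CPM in siTj against 0, 1.19 and 0.478 CPM, again with every siTj library higher (3.29, SE 1.27, edgeR adjusted p = 0.564). With the replicate block its adjusted p was 0.0702 and that of Sox102F 0.116. In an alternative added after seeing the data, the block without siPiwi 2 and siTj 2, these 2 of 67 genes were called higher, CG31999 at 4.19 (edgeR adjusted p = 0.0293) and Sox102F at 4.4 (0.0208), where 7.47% of all genes were called and 3.1% were higher. Hemocyte and fat body markers summed to 230 to 481 CPM in siTj and 19.0 to 81.4 CPM in siGFP, and muscle markers to 164 to 256 and 70.5 to 98.1 CPM. Within these sums Cg25C (147 to 320 against 10.5 to 42.9 CPM), vkg (46.8 to 151 against 7.64 to 32.2), Act57B (44.3 to 192 against 6.55 to 23.5) and wupA lay above siGFP in every library. Hml, Fbp1, Mhc, Mlc2 and up overlapped siGFP, so the lists did not move as a whole. The part of these markers in the values of CG31999 and Sox102F was not tested.

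The vesicle gene unc-13 stood at 330, 259 and 269 CPM against 250, 181 and 200 CPM (0.44, edgeR adjusted p = 0.782). Cadps, which holds a TJ peak, was at 12, 10.8 and 9.05 CPM against 7.67, 4.25 and 5.81 CPM, and CG11155 at 6.95, 3.58 and 9.68 CPM against 0.742, 1.23 and 3.57 CPM (1.85). The complex I gene ND-49 was lower, at 149, 91.6 and 165 CPM against 219, 166 and 253 CPM (-0.65, SE 0.47, edgeR adjusted p = 0.782). The other 7 genes above siGFP were CG1909, CG31997, CG32017, CG33521, CG33978, Ekar and yellow-h.

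**Figure D4:**
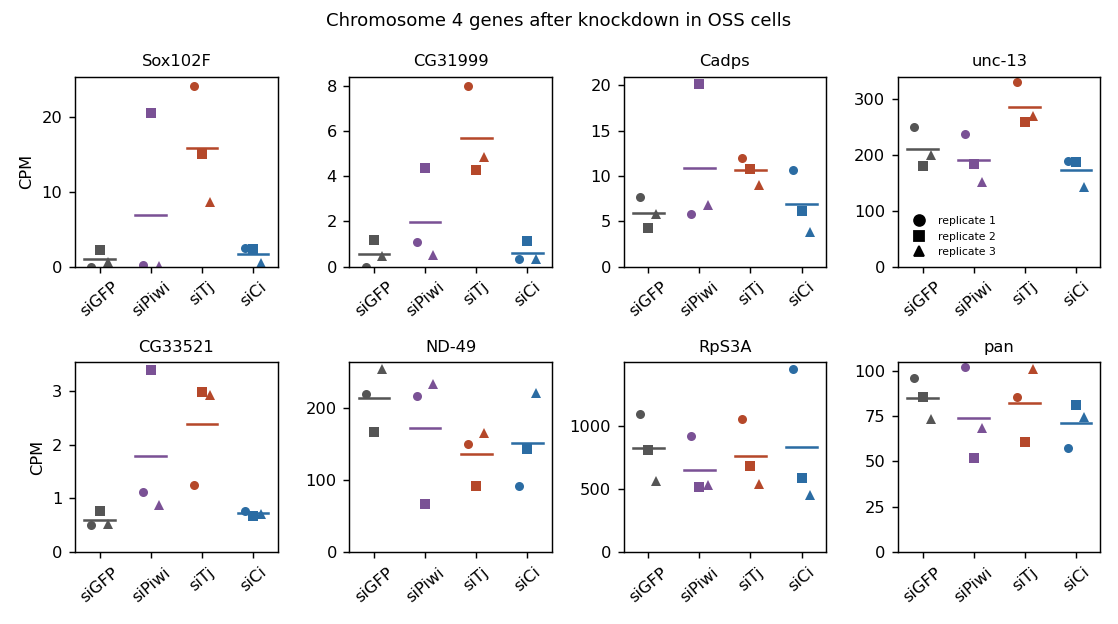
Level in CPM of 8 chromosome 4 genes in each of the 12 OSS libraries, by siRNA; each point is a library. In siTj, Sox102F stands at 8.63 to 24.2 CPM against 0 to 2.28 CPM in siGFP, while RpS3A and pan overlap in all 4 groups.

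In siPiwi 1 gene of the 92 was above siGFP in every library, where 1.26% of all genes past the read threshold were. It was CG33521, at 1.12, 3.39 and 0.877 CPM against 0.495, 0.76 and 0.528 CPM. Several rises rested on siPiwi 2, the library with the most antisense reads. Cadps was at 5.84, 20.1 and 6.77 CPM and bt at 1.62, 43.4 and 0.877 CPM, where only siPiwi 2 was outside the siGFP range by a wide margin. The most abundant genes overlapped siGFP, with RpS3A at 917, 514 and 527 CPM against 1090, 806 and 564 CPM.

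In siCi 3 of the 92 genes were below siGFP in every library, a share close to the 2.59% of all genes past the read threshold. Zip102B, a zinc transporter gene, stood at 70.3, 73.2 and 96.6 CPM against 113, 107 and 156 CPM (log2 fold change -0.65, SE 0.33). Ank stood at 61.3, 141 and 136 CPM against 184, 167 and 172 CPM, and PlexB at 14.1, 21.6 and 19.8 CPM against 42, 23.3 and 22.5 CPM. None passed the threshold (edgeR adjusted p = 1.0 for each). The small GTPase genes Arl4 and Arf102F, with pho and Crk, were highest in the library numbered 3 of the siGFP, siPiwi and siCi groups, pho for example at 56.9, 54.3 and 200 CPM in siGFP and 64.4, 33.4 and 142 CPM in siPiwi.

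Over the 6 fly lines together the mutants did not differ from the wild types in any chromosome 4 gene past the threshold. Of 91 tested with the line as a block, 0 were called, as were 0.0% of all 11155 genes, and 14 had an unadjusted p under 0.05 (11.1% of all genes). The median log2 fold change was -0.05, against -0.07 over all genes. DESeq2 called dpr7 and sv higher (adjusted p = 0.0384 and 0.0334), where it called 2.99% of all genes. The single gene with every mutant below every wild type (0.0366% of all genes past the read threshold) was CG11076, at 74.9, 149 and 172 CPM (lowest, median and highest) against 176, 188 and 218 CPM (-0.60, SE 0.23, edgeR adjusted p = 0.436).

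The lines FlamBG and FlamKG differed from the other 4. This split was chosen with earlier results of these data known. In the 4 libraries of the 2 Flam lines, with 1 residual degree of freedom, 15 of 89 genes were higher in the mutant and 4 were lower, where 30.5% of all genes were called, 20.5% higher and 10.0% lower. In the other 4 lines 0 of 91 were called, as were 0.0% of 11800 genes, and 8 had an unadjusted p under 0.05 (6.9% of all). The difference between the 2 sets of lines passed the threshold in 28 genes, 20 with a higher effect in the Flam lines and 8 with a lower one, where 42.0% of all genes passed (18.6% higher and 23.4% lower). In either direction together, neither test called a larger share of the chromosome 4 genes than of all genes, and the counts themselves are no result about this chromosome.

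Rfabg had the largest effect of the chromosome 4 genes. It stood at 8110 and 11400 CPM in the FlamBG and FlamKG mutants and at 125 and 187 CPM in their wild types, and at 265 to 627 CPM in the other 4 mutants. The difference between the sets of lines was 5.64 on the log2 scale, and Rfabg took 31.0% and 47.8% of all chromosome 4 reads in those 2 mutants. Its reads were counted over chr4:1064900-1077278 in those 2 mutants and the FPSE2B wild type. In the other ovary libraries, both Flam wild types included, they were counted over chr4:1060963-1076209. Bounds and genotype thus cannot be told apart in the Flam lines, and the size of this effect is uncertain. The GABA transporter gene Gat stood at 15.2 and 7.70 CPM against 0 and 0.484 CPM, and 0.891 to 1.78 CPM in the other mutants.

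Muscle and regulatory genes were among the others. The projectin gene bt stood at 1210 and 847 CPM in the Flam mutants against 251 and 371 CPM in their wild types, but the FITS line was as high in both, at 1110 and 1440 CPM. NfI stood at 51.4 and 14.2 CPM against 8.25 and 2.84 CPM, and Sox102F at 69.3 and 92.6 CPM against 41.9 and 12.5 CPM. The homeodomain gene zfh2, at 26.9 and 44.2 CPM against 6.09 and 5.22 CPM, was also higher in the FITS mutant, at 33.2 CPM against 7.46, and its difference between the sets of lines was not called.

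Fewer genes were lower in the Flam mutants. RpS3A stood at 699 and 724 CPM against 1440 and 1750 CPM, and at 1460 to 3020 CPM in the other mutants (difference of -0.88). The TGF-beta ligand gene mav stood at 52.2 and 36.0 CPM against 204 and 95.3 CPM, and CG11076 at 86.1 and 74.9 CPM against 218 and 191 CPM. For pho the values were 629 and 94.3 CPM against 2200 and 270 CPM, so that the FlamBG libraries were both higher than the FlamKG ones.

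Marker sums of other cell types also differed between mutant and wild type in these 2 lines. The 5 muscle markers summed to 5350 and 3760 CPM in the FlamBG and FlamKG mutants against 306 and 1190 in their wild types, the 4 hemocyte and fat body markers to 1850 and 1650 against 474 and 1230, the 4 neuronal markers to 126 and 79 against 42.5 and 39.8, and the 6 germline markers to 1160 and 406 against 5080 and 1870. In the other 4 lines the muscle sums were 645 to 3230 CPM in mutants against 682 to 2810 in wild types. Hemocyte and fat body sums there were 225 to 1850 against 275 to 1990, with FPSE1 at 579 against 1990. Neuronal sums were 38.6 to 78 against 40.3 to 66.7, and germline sums 1430 to 2130 against 1460 to 2680. Several of these levels were thus not particular to the Flam lines. The part of these markers in the chromosome 4 values was not tested.

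**Figure D5:**
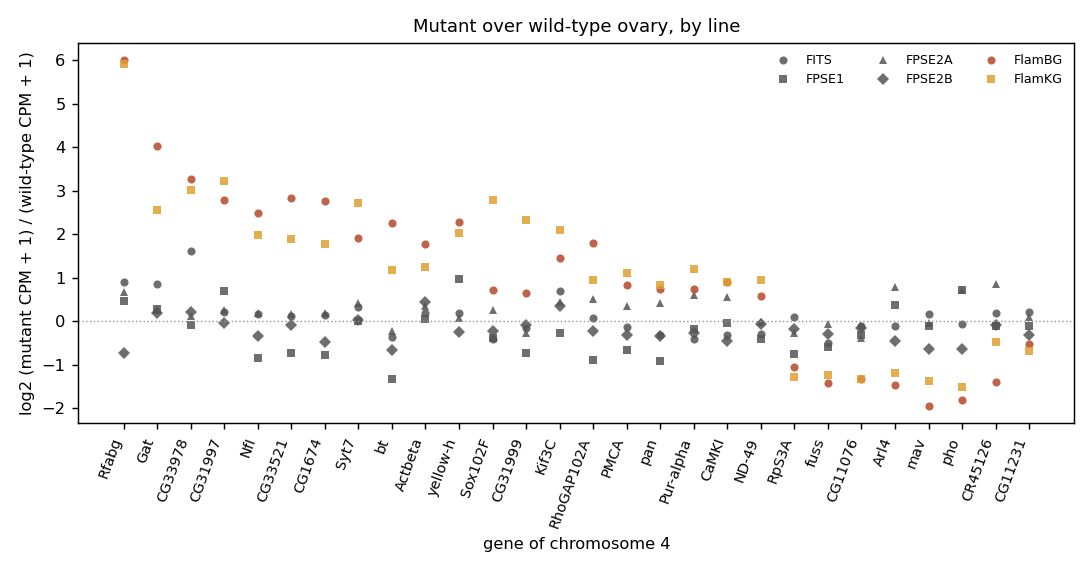
Log2 ratio of mutant over wild type (CPM plus 1) in each of the 6 lines for the 28 chromosome 4 genes whose effect differed between FlamBG and FlamKG and the other lines. Each point is a line. Rfabg stands at 6.01 in FlamBG and 5.92 in FlamKG and between -0.74 and 0.90 in the others. The bounds of Rfabg differed between mutant and wild type in FlamBG, FlamKG and FPSE2B.

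Genes on this chromosome often overlap or share repeats, which limits single values. There were 16 overlapping pairs among the 92 genes, 15 on opposite strands, and the strands were counted apart. In siPiwi 2 and siTj 2, where antisense reads were frequent, partners on opposite strands such as Rfabg and Zyx or Cals and sv cannot be fully told apart. The unique counts hold no reads that mapped to more than 1 position. Such reads made up 92.5% of the sense reads of toy, 91.7% of CG32850, 69.4% of Syt7 and 67.4% of PlexB, so the levels of these genes are the most uncertain.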

How the data were processed

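Long RNA of 24 libraries and Cut&Run of 8 were used. The submitters' processing notes name MACS2, Bowtie2, FastQC and DESeq2 without saying what each did or in which version. The deposited tables held whole-number counts of reads per gene, made by the authors, unique and sense reads apart, per the file headers. The deposited summit lists held a -log10 q per summit as the authors gave it for each library apart, ending at a q of 0.0497. The build was taken to be dm6 (Release 6) because gene positions match it. No value column of another series was found (0).

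The 92 genes, role lists and line split were chosen with earlier results of these data known. The tables' unique sense locus counts were tested with edgeR 4.0.16 (filterByExpr, TMM, quasi-likelihood, R 4.3.3), with Benjamini-Hochberg adjustment over all genes and a threshold of 0.05. All 12 OSS libraries shared 1 fit. The replicate number was a block in an alternative, since same-numbered OSS libraries deviated together (r between 0.38 and 0.871 in all 18 pairs). The fly line was a block in ovaries, as the labels name it, although same-line libraries correlated weakly (-0.02 to 0.30). SE is the log2 fold change divided by the root of the F statistic. DESeq2 1.42.0 was an alternative. Scripts were tested on simulated data.

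Named genes were those called in a fit (at most 8 each way against ovaries), the 5 largest rises and falls at a mean of at least 10 CPM, the 8 highest per kb in each source, those with most or strongest summits or H3K4me3 at the start in each library, those at the read threshold, and 2 per role list. Other names were added after their values were seen. Bounds differed between libraries for 12 genes (Rfabg, Arl4, ATPsynbeta, PMCA, Cadps, MED26, CR43957, fuss, CG11076, CR44031, ey and CG1674), whose values are uncertain. Small RNA and ChIP signal were not used here, apart from the deposited TJ peak positions.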

Additional observations from a re-analysis of the deposited data

Results flagged for a closer look

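In 28 chromosome 4 genes the mutant effect in FlamBG and FlamKG differed from that in the other 4 lines by the test of the difference itself (edgeR, adjusted p under 0.05, 42.0% of all genes tested), given here as a difference of log2 fold changes. The genes with a higher effect in the Flam lines were Rfabg (5.64), Gat (4.34), CG33978 (2.86), CG31997 (2.85), NfI (2.71), CG33521 (2.57), CG1674 (2.55), Syt7 (2.42), bt (2.37), Actbeta (2.32), yellow-h (2.27), Sox102F (2.02), CG31999 (1.89), Kif3C (1.69), RhoGAP102A (1.63), PMCA (1.17), pan (1.09), Pur-alpha (1.05), CaMKI (0.98) and ND-49 (0.96). Those with a lower effect were RpS3A (-0.88), fuss (-1.04), CG11076 (-1.11), Arl4 (-1.49), mav (-1.53), pho (-1.85), CR45126 (-1.86) and CG11231 (-3.32). For CG11231, at 0.132 and 0.0349 CPM in the 2 Flam mutants, the value rests on few reads. The bounds of Rfabg and PMCA in the 2 Flam mutants differed from those in their wild types.

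The genes examined for outlying libraries included those called in the FlamBG and FlamKG lines alone, so no chance rate applies to their number. Single ovary libraries lay far from the other 5 of their group in 12 of 104 groups by the Dixon rule used (11.5%). Of these, 8 were the FlamBG mutant, with CG1674 at 232 CPM (others 30.1 to 82.5), CG31997 at 174 (8.11 to 52.6), CG33521 at 142 (15.8 to 53.6), CG33978 at 95.3 (8.47 to 39.7), Kif3C at 35.7 (9.12 to 12.9), NfI at 51.4 (4.85 to 14.2), Pur-alpha at 199 (57.7 to 107) and yellow-h at 28.5 CPM (2.72 to 7.79). The FlamBG wild type gave 3, with Arl4 at 794 CPM (others 93.7 to 314), PIP4K at 560 (78.5 to 224) and CG31997 at 24.4 (4.70 to 8.48). The FPSE2B wild type gave 1, Rfabg, at 1050 CPM (others 125 to 235). In that library Rfabg had the bounds used in the 2 Flam mutants, not those of the other wild types.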

How the results depend on the processing

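Against wild-type ovaries the count of 62 called genes ranged from 54 to 63 over edgeR's other alternatives, fell to 47 without siGFP replicate 1 and was 70 with DESeq2 (68 lower, 2 higher), and 0 results reversed. Of 34 named genes called there, 11 lost the call in at least 1 alternative (CG11148, CG11360, CG2316, CG32000, Cals, ND-49, PlexA, mav, onecut, pho and zfh2). With the replicate block 0 genes were called in siPiwi, siTj and siCi, as without it. The 2 calls in siTj came with the block and without siPiwi 2 and siTj 2, and dropping siTj 2 alone with the block gave 0. In ovaries DESeq2 called 2 genes, and the lines FlamBG and FlamKG alone gave 19. No other alternative run, the fit without the line (no replicate block) included, changed a count of 0. Genes with H3K9me3 numbered 64 to 72 and with H3K4me3 42 to 49. The cause of these changes was not tested. With 3 libraries a group, and genes near 0 CPM in OSS cells, small differences were not detectable. In the knockdown fits without the block even the targets piwi, tj and ci were not called in their own knockdowns. Summit lists show where a mark was called, not how much there was.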
